A study of Mus musculus with 19 samples.

Results

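SOX3 occupancy was described at 10 genes of the nucleosome remodelling and deacetylase (NuRD) complex, out of 26182 genes with a curated RefSeq transcript on mm10, the mouse genome build of the peak lists. The genes were Chd3, Chd4, Hdac1, Hdac2, Mta1, Mta2, Mta3, Mbd2, Mbd3 and Gatad2a, chosen as members of the complex with earlier results of these data known. A further 5 NuRD subunits are described separately. The data were 2 lists of SOX3 ChIP-seq peaks, 1 for each of 2 independent biological replicates of mouse testis at postnatal day 7, each called against input chromatin. The labels name 2 SOX3 antibodies for each library. Per the study's methods the chromatin came from seminiferous tubules of 3 mice at P7 to P8 on a C57BL/6J background, with no mutation or treatment named in the labels of these samples. The study also made 2 SOX3 ChIP-nexus libraries, an exonuclease form of ChIP that trims DNA up to the bound protein, and the other 15 of its 19 samples were not analysed here. Tubules hold germ cells together with Sertoli cells, so the cell type in which SOX3 occupied a site cannot be told from these lists. The paper calls SOX3 specific, within the testis, to undifferentiated spermatogonia, and reports staining for it in these cells at P7. The 2 samples carry no expression values, and the labelled tissue could not be checked against marker genes.

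NuRD joins 2 enzyme activities in 1 assembly: an ATPase of the CHD family slides nucleosomes, and class I histone deacetylases remove acetyl groups from histone tails. MTA proteins hold the deacetylases, MBD2 or MBD3 bridges the deacetylase and remodelling modules, and GATAD2 proteins connect the MBD subunit to the ATPase. In many cell lineages the complex lowers or fine-tunes transcription at promoters and enhancers, and its subunits have been studied in spermatogonia, the mitotic germ cells of the testis. SOX3 is an HMG-box transcription factor of undifferentiated spermatogonia.

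Promoter sequences show what kind of start sites these genes have. The RefSeq promoter table for GRCm38.p6, which is the mm10 assembly, holds 8 promoters of 6 of the genes (Chd4, Gatad2a, Hdac2, Mbd3, Mta1 and Mta2), each with 250 bases before and 50 bases after the start. Mbd3 is shown as the gene with the highest mean promoter score. Mta1, the gene with the lowest mean score of those in the table, and both promoters of Gatad2a were chosen after their values were seen. Capitals mark GGGCGG, the GC box of SP/KLF factors, CCAAT, the NF-Y box, and TATAAA, the TATA box, on either strand, and the sequences run 5′ to 3′ along the gene.
Mbd3, chr10:80399482-80399781, minus strand: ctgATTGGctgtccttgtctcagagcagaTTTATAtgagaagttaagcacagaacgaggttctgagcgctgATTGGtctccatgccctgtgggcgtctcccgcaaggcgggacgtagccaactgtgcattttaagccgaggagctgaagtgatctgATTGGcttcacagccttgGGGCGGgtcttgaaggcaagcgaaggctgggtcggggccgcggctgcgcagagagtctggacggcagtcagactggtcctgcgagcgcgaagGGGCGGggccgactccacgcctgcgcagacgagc
Mta1, chr12:113098028-113098327, plus strand: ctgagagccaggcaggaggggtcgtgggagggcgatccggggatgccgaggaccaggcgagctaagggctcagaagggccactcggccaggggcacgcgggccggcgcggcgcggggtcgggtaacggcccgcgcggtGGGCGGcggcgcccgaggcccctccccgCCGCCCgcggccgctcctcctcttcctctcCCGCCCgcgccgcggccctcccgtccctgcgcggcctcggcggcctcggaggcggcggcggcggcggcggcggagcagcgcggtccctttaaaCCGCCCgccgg
Gatad2a upstream promoter, chr8:69996335-69996634, minus strand: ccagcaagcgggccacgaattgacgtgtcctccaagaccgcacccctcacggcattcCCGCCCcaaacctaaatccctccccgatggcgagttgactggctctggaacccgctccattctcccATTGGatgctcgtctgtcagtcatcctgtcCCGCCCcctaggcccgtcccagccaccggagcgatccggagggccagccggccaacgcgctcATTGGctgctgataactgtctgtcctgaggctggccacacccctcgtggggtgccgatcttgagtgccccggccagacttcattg
Gatad2a downstream promoter, chr8:69974334-69974633, minus strand: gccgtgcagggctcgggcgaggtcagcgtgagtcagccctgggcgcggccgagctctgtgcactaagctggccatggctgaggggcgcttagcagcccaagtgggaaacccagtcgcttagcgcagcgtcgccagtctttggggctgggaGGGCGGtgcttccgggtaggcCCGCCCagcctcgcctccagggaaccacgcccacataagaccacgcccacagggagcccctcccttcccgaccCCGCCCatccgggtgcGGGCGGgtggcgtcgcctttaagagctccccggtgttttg

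All 8 promoters held GGGCGG at least once, against 35.7% of the 32851 promoters in the table and 63.8% of the 13605 promoters of genes with a SOX3 promoter peak in both replicates. The 2 Chd4 promoters overlap, so these are not 8 separate pieces of DNA. CCAAT was found in 4 of the 8, both of Chd4, which overlap, the upstream one of Gatad2a and that of Mbd3. It was in 37.4% of all promoters and 37.7% of those of genes occupied in both replicates. TATAAA was found in the Mbd3 promoter alone among the 8, against 13.6% of all and 6.64% of those of genes occupied in both replicates. This match lay on the opposite strand near the upstream end of the window, far from the start. The search took any position in the window, so it does not make Mbd3 a TATA-box promoter. None of the 8 held AACAAT or AACAAAG, 2 forms of the site bound by SOX-family HMG boxes in other systems, which were present in 10.7% and 5.85% of all promoters and in 5.56% and 3.65% of the promoters of genes occupied in both replicates. The absence says only that these letters are not in these windows. CG dinucleotides numbered 17 to 50 in the 300 bases, against a median of 7 over all promoters and of 21 over those of genes occupied in both replicates. The Mta1 promoter above, with 50, lay at the 99.1 percentile of the table.

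In the middle 300 bases of the strongest promoter peak, AACAAT occurred at Chd4 in replicate 1 and at Hdac1 in replicate 2, which is 1 of 10 genes in each, against 4.09% and 3.88% of all such windows. AACAAAG occurred at the same genes, against 3.01% and 3.10%. GGGCGG was present at 5 genes in replicate 1 and 8 in replicate 2, against 59.1% and 60.5%. CCAAT was present at 0 of the 10 genes in replicate 1 and at 1, Gatad2a, in replicate 2, against 26.0% and 25.5%. These windows follow the middle of the peak and not the start site, and several of the peaks reached far into the gene.

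Each of the 10 NuRD genes was occupied at its promoter in each replicate, and occupancy of this kind was common. A promoter peak is a peak that reaches within 2 kb of an annotated start site. It was present at 10 of 10 genes in replicate 1, where 62.7% of all genes had one, and at 10 of 10 in replicate 2, where 54.7% did. The 10 genes thus had a promoter peak in both replicates, as did 52.2% of all genes and 57.9% of the 21000 protein-coding genes. The promoter peaks of the replicates overlapped, by 50% or more of either peak, at 10 of 10 genes, against 50% of all genes. No p-value is given for these counts, because there is 1 group of samples and no contrast.

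The replicates differed in overall strength. Each peak carries a q score, which is −10 log10 of its adjusted p-value and was kept by the authors above 30, and the log2 ratio of ChIP over input. Replicate 1 had 58351 peaks and replicate 2 had 38832, although the study's reporting summary gives replicate 2 more reads than replicate 1. The cause of the difference in strength was not tested. Among the 13665 genes with a promoter peak in both, the ratio of the strongest promoter q score in replicate 1 to that in replicate 2 had a median of 2.29, with quartiles of 1.74 and 2.88. The same ratio was a median of 2.64 over the NuRD genes and ran from 1.64 at Mta3 to 4.69 at Hdac2. A score was therefore read against all genes of its own replicate, as a percentile among the genes with a promoter peak.

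The strongest promoter peaks of the NuRD genes had a median q score of 287 in replicate 1 and 114 in replicate 2, against 165 and 78.8 over all genes with a promoter peak in that replicate. Restricted to genes with a peak in both, the medians of all genes were 199 and 82.7. In replicate 1, 9 of the 10 genes lay above the median of all genes, and in replicate 2, 8 did. In each replicate 5 of the 10 were above the 75 percentile. With a minimum q score of 60 in both replicates 9 genes remained, all but Hdac1, against 35.2% of all genes. At a minimum of 100 there were 7, without Hdac1, Hdac2 and Mbd2, against 19.7% of all genes. The median log2 ratio was 4.14 in replicate 1 and 2.99 in replicate 2, against 3.67 and 2.72 over all genes with a promoter peak.

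**Figure D1:**
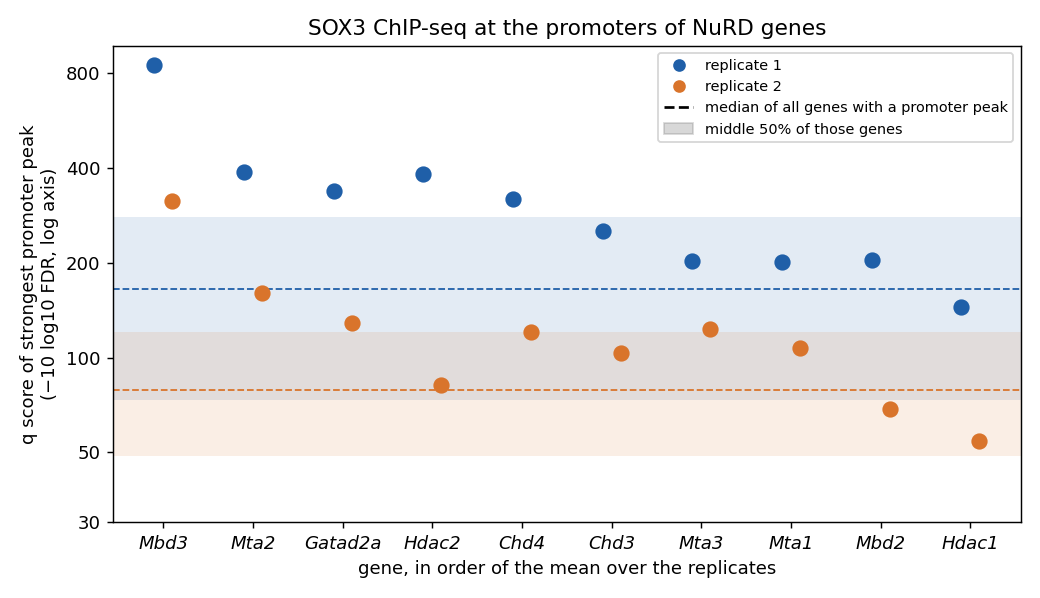
The vertical log axis gives the q score of the strongest promoter peak (−10 log10 of the adjusted p-value) of each of 10 NuRD genes, in order of the mean, with 1 point for each replicate, the dashed lines at the medians of all genes with a promoter peak in that replicate (165 and 78.8) and bands over the middle 50% of those genes. Mbd3 stands highest in both replicates (848 and 314), Hdac1 lowest (145 and 54.2), and Hdac2 has the widest gap between replicates.

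CHD3 and CHD4 are the remodelling ATPases of the complex. At Chd4 (chr6:125095981-125130591, plus strand) the strongest promoter peak scored 319.8 in replicate 1 and 121 in replicate 2, with a mean of 220.3 ± 141 (SD, n = 2). Its log2 ratios were 4.10 and 3.05. These scores stood at the 81.5 and 75.4 percentiles of all genes with a promoter peak. Chd3 (chr11:69343273-69369426, minus strand) scored 253 and 104, a mean of 179 ± 106 (SD, n = 2), at the 70.3 and 66.1 percentiles. The log2 ratio at Chd3 was 4.90 in replicate 1 and 2.43 in replicate 2. By the strongest promoter peak, Chd4 was thus above Chd3 in score in each replicate. The log2 ratio put Chd3 above Chd4 in replicate 1 and below it in replicate 2.

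Both ATPase genes had long peaks in replicate 1 that replicate 2 showed as shorter ones. The Chd3 promoter peak of replicate 1 was 7931 bp wide, covered the start and reached 7609 bp into the gene, and a second peak (q score 137, 3065 bp) lay wholly upstream of the start. In replicate 2 the start was covered by a peak of 1957 bp. A separate 3607-bp peak began 2270 bp inside the gene and, with a q score of 135, was stronger than the peak at the start itself. It lay wholly within the long peak of replicate 1, but it was counted in the gene body because it did not reach the 2 kb window. Its score of 135 was also above the 121 of the Chd4 promoter peak. The order of Chd3 and Chd4 in replicate 2 thus depends on the window. The Chd4 peak was 6607 bp wide in replicate 1 and 2342 bp in replicate 2. It covered both annotated starts of Chd4 and the start of Mir7045, a microRNA gene, in each replicate.

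HDAC1 and HDAC2 are the deacetylases, 2 close paralogues that also serve other co-repressor complexes. Hdac2 (chr10:36974544-37001888, plus strand) had a promoter score of 385 in replicate 1 and 81.9 in replicate 2, a mean of 233 ± 214 (SD, n = 2). That placed it at the 88.3 percentile in the first and the 51.7 percentile in the second. The ratio of 4.69 between its replicates was above 3.53, the 90th percentile of this ratio over all genes with both. Its log2 ratio was 5.16 and 2.40. The peaks themselves matched in place, with a shared stretch of 1378 bp in peaks of 1657 and 1479 bp.

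Hdac1 (chr4:129516104-129542646, minus strand) had the lowest promoter scores of the 10 in both replicates. It scored 145 and 54.2, a mean of 99.4 ± 64.0 (SD, n = 2), at the 44.6 and 30.01 percentiles, below the median of all genes with a promoter peak. The log2 ratio of these strongest promoter peaks, 3.77 and 3.46, was not the lowest of the 10 in either replicate. In replicate 1 a single peak of 3144 bp covered the start. In replicate 2 there were 2 promoter peaks, of which the stronger began 1850 bp inside the gene and shared no base with the peak of replicate 1. The mean and SD given for Hdac1 thus join 2 different sites. The start itself was covered in replicate 2 by a 792-bp peak with a q score of 50.7 and a log2 ratio of 1.85. That weaker peak lay within the peak of replicate 1. Its log2 ratio was below that of the strongest promoter peak of every other gene in replicate 2, the next being 2.32 at Mbd2. The score of Hdac2 was 2.66 times that of Hdac1 in replicate 1 and 1.51 times in replicate 2, differences of 239.9 and 27.7 score units.

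The MTA genes encode the scaffold that binds the deacetylases. Mta2 (chr19:8941920-8952300, plus strand) had the second highest score in both replicates, 388 and 160.0, with a mean of 274 ± 162 (SD, n = 2). Its percentiles were 88.5 and 88.6, the closest pair of the 10 genes, and its log2 ratios were 5.17 and 3.56. The Mta2 peak also held the start of Gm10353, a long noncoding RNA gene on the opposite strand. Mta3 (chr17:83706163-83823715, plus strand) scored 202 and 123, a mean of 163 ± 56.0 (SD, n = 2), at the 59.1 and 76.0 percentiles. Mta1 (chr12:113098278-113137206, plus strand) scored 201 and 107, a mean of 154 ± 66.3 (SD, n = 2), at the 58.7 and 68.1 percentiles. Mta1 and Mta3 were the 2 genes with the smallest ratios between replicates, 1.88 and 1.64. Their log2 ratios were 3.70 and 2.93 for Mta1 and 3.98 and 3.42 for Mta3. Mta2 was above both of its paralogues in each replicate. Mta3 was above Mta1 in each replicate, by 202 against 201 and 123 against 107. Their means differed by less than the SD of either gene, but that SD includes the overall difference in strength between the replicates.

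MBD2 and MBD3 bridge the modules of the complex and do not occur in the same assembly. MBD2 binds methylated CpG, while mammalian MBD3 has lost most of that affinity. Mbd3 (chr10:80392539-80399531, minus strand) had the highest score of the 10 in both replicates, 848 and 314, with a mean of 581 ± 378 (SD, n = 2). By this score it was gene 94 of 16417 in replicate 1 and gene 161 of 14310 in replicate 2, at the 99.4 and 98.9 percentiles. Its log2 ratio of 5.57 was also the highest of the 10 in replicate 1. At 3.40 it was below those of Mta2, Mta3 and the inner peak of Hdac1 in replicate 2. The peaks were 3660 and 3681 bp wide and shared 3320 bp. Mbd2 (chromosome 18, plus strand) scored 204 and 68.9, a mean of 137 ± 95.7 (SD, n = 2), at the 59.6 and 42.0 percentiles, with log2 ratios of 3.60 and 2.32. The score of Mbd3 was 4.16 times that of Mbd2 in replicate 1 and 4.56 times in replicate 2, differences of 644 and 245 score units.

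GATAD2A links the MBD subunit to the ATPase. Gatad2a (chr8:69907069-69996384, minus strand) has 2 annotated promoters, whose sequences are shown above, about 22.0 kb apart, and each was covered by its own peak in both replicates. The upstream promoter scored 219 and 129, and the downstream one 338 and 121. The downstream promoter was the stronger in replicate 1 and the weaker in replicate 2. The strongest score of the gene had a mean of 233 ± 148 (SD, n = 2) and stood at the 83.8 and 78.4 percentiles. It came from the downstream promoter in replicate 1 and the upstream one in replicate 2. This mean and SD thus join 2 different sites and are not replicate values of 1 site.

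All 13 annotated start sites of the 10 genes lay inside a peak in both replicates. The same share over the start sites of all genes is not given here, so how common this was cannot be read from the count. The strongest promoter peak covered a start of its own gene at 10 of 10 genes in replicate 1 and at 9 in replicate 2, where Hdac1 was the exception, against 92.5% and 86.9% of genes with a peak in both. Its median width was 3086 bp in replicate 1, from 1610 bp at Mbd2 to 7931 bp at Chd3. In replicate 2 the median was 1768 bp, from 955 bp at Hdac1 to 3681 bp at Mbd3. Over all genes with both peaks the medians were 1767 and 1358 bp. The middle of the peak fell inside the gene at 9 genes in replicate 1 and 8 in replicate 2, against 60.1% of all such genes in each. Over all 10 genes, with positions before the start counted as negative, its distance from the start had medians of 242 and 401 bp. The same medians over all genes with both peaks were 67 and 64 bp. The strongest peak held the start of another gene at 2 of 10 genes in each replicate, Chd4 and Mta2, against 30.2% and 28.0% of all genes with both.

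**Figure D2:**
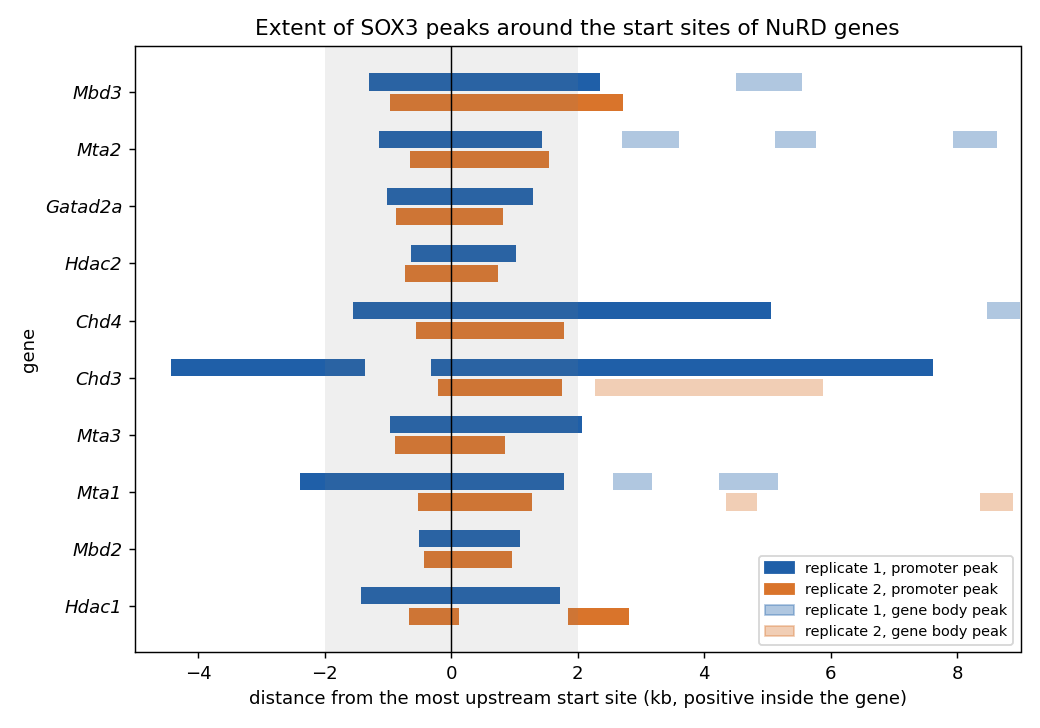
Bars give the extent of each SOX3 peak from 5 kb before to 9 kb after the most upstream start site of each of 10 NuRD genes (horizontal axis in kb, positive inside the gene), blue for replicate 1 and orange for replicate 2, pale where the peak lies outside the 2 kb promoter window, which is shaded. The start is covered in both replicates at every gene, the replicate 1 peaks of Chd3 and Chd4 reach 7609 and 5052 bp into the gene, and Hdac1 in replicate 2 has a 792-bp peak at the start and a second one further in. The second promoter of Gatad2a lies beyond the right edge.

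The order of the genes was in part the same between replicates. By strongest promoter q score 4 of the 10 genes held the same place in both, namely Mbd3 at place 1, Mta2 at place 2, Chd4 at place 5 and Hdac1 at place 10. Hdac2 went from place 3 in replicate 1 to place 8 in replicate 2, and Mta3 from place 8 to place 4. Spearman's rho between the replicates was 0.66 over the 10 genes and 0.84 over all 13665 genes with both peaks. For the log2 ratio it was 0.22 over the 10 genes and 0.34 over all. These are descriptions across genes, which share the 2 libraries and are not independent replicates. On the mean score the intervals of 1 SD overlapped for each pair of neighbours in the order. That SD includes the overall difference in strength between the replicates, so the overlap does not measure how certain the order is. The places within each replicate, given above, are free of that difference.

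The other genes of the complex, and those of related assemblies, were also mostly occupied at their promoters. Of 5 further NuRD subunits, 4 had a promoter peak in both replicates: Rbbp4 and Rbbp7, the histone-binding WD40 proteins, Gatad2b, the paralogue of Gatad2a, and Cdk2ap1. Rbbp4 scored 458 and 243, at the 93.2 and 97.3 percentiles. Chd5, another NuRD-type ATPase gene, had a promoter peak of 32.6 in replicate 1, just above the minimum, and none in replicate 2. Its 2 paralogues among the 10 genes, Chd3 and Chd4, scored 253 and 319.8 in replicate 1.

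In the SIN3 complex, which also carries HDAC1 and HDAC2, 10 of 11 genes had a promoter peak in both replicates, and Sap30 had one in replicate 1 alone. The CoREST complex, which pairs the deacetylases with the demethylase KDM1A, had 6 of 6, and the NCoR and SMRT complex, built around HDAC3, also had 6 of 6. The other methyl-CpG-binding genes had 5 of 5 and the other CHD genes 6 of 6. All of these counts stand beside 52.2% of all genes. Over the genes with a promoter peak in that replicate, median percentiles of the strongest score were 75.9 and 71.7 for the 10 NuRD genes, 77.0 and 84.0 for the other NuRD subunits, 79.3 and 75.8 for SIN3, 73.9 and 79.7 for CoREST, 66.6 and 66.8 for NCoR and SMRT, 58.5 and 52.9 for the methyl-CpG-binding genes and 69.2 and 68.7 for the CHD genes. No test was made of differences between these lists.

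**Figure D3:**
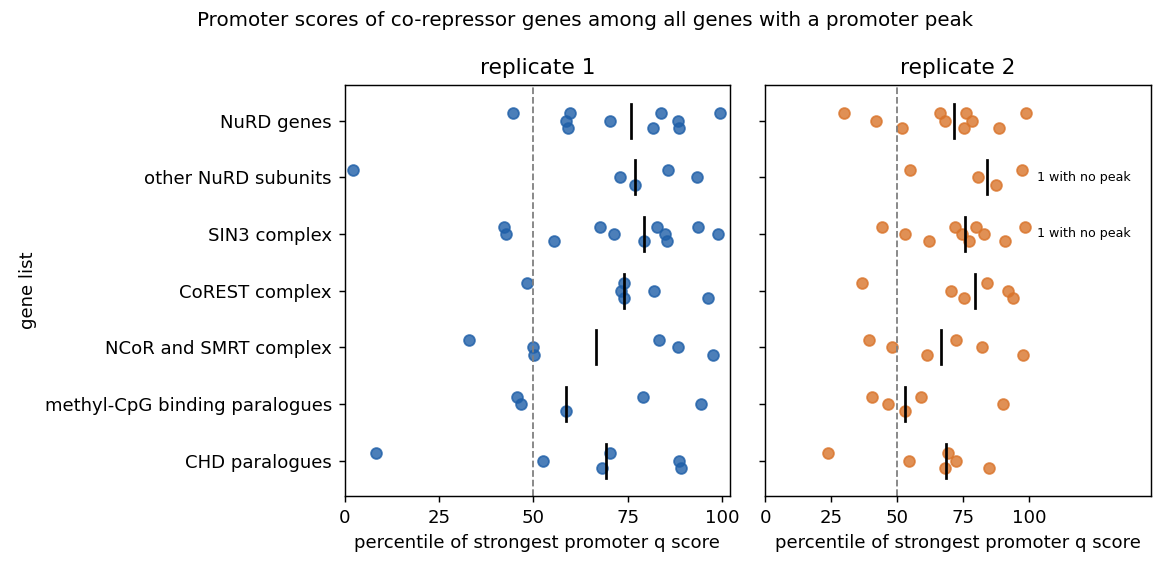
Each point is 1 gene, placed on the horizontal axis by the percentile of its strongest promoter q score among all genes with a promoter peak in that replicate (left, replicate 1, right, replicate 2), with black bars at list medians and a dashed line at 50. The NuRD genes have medians of 75.9 and 71.7, and each list has genes on both sides of the dashed line in at least 1 replicate; Chd5 and Sap30 have no promoter peak in replicate 2.

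Away from the promoters the peaks were weaker and mostly seen in 1 replicate. A gene body peak touches the gene but not the 2 kb windows. There were 40 in replicate 1, in 8 of the 10 genes, and 16 in replicate 2, in 6 genes. By gene the counts in replicates 1 and 2 were 9 and 3 in Chd4, 8 and 2 in Mta3, 6 and 3 in Gatad2a, 5 and 3 in Chd3, 5 and 4 in Mta1, and 3 and 1 in Hdac1. Mta2 had 3 and Mbd3 had 1 in replicate 1, and neither had any in replicate 2. Hdac2 and Mbd2, which span 27.3 and 57.8 kb, had none in either replicate. Hdac1, of nearly the same length as Hdac2 at 26.5 kb, had some in both.

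**Figure D4:**
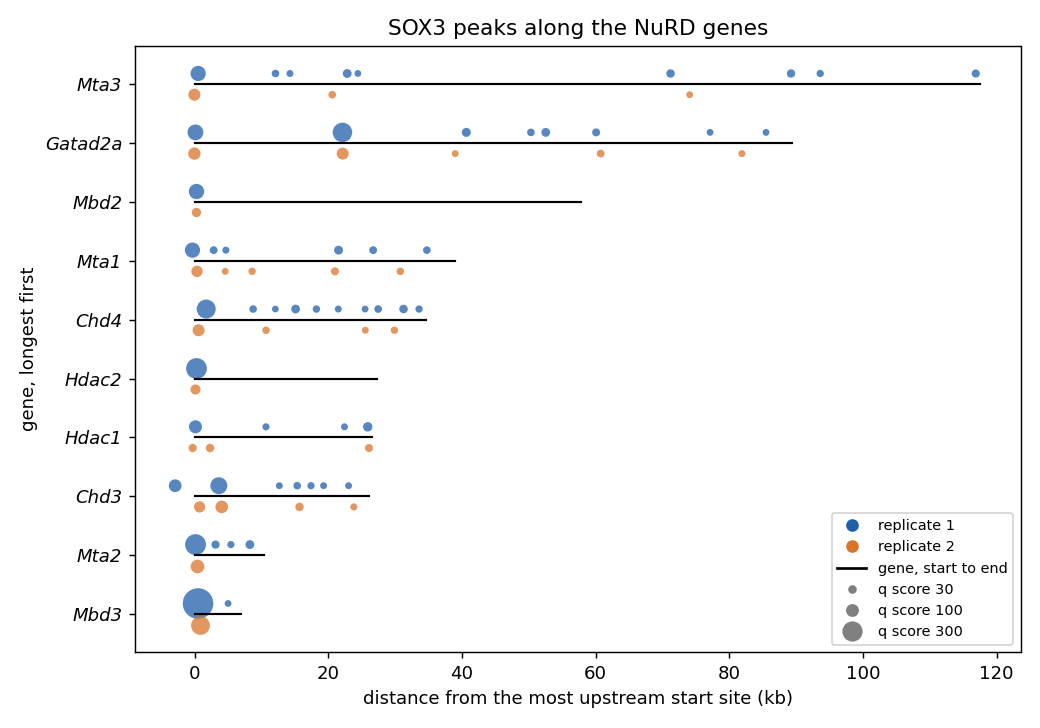
Each point is a SOX3 peak, placed by its middle in kb from the most upstream start site along the 10 NuRD genes (black lines, longest gene first), with the point's area rising with the q score, blue for replicate 1 above the line and orange for replicate 2 below it. The large points sit at the starts, and at the second start of Gatad2a, while the gene bodies carry 40 and 16 mostly small points, with none in Hdac2 and Mbd2.

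The body peaks had a median q score of 41.2 in replicate 1 and 38.6 in replicate 2, close to the minimum of 30, and those of all genes had 37.9 and 36.5. Their median widths were 686 and 630 bp, against 624 and 585 bp over all genes. Most had their middle in an intron, 37 of 40 and 11 of 16, but the share over the body peaks of all genes was not computed. Each of the 40 and 16 had the same pair of q score and log2 ratio as at least 1 other peak in its list, as did 99.8% and 99.7% of all body peaks, so their scores take few separate values and rank them coarsely. An overlap of 50% or more of either peak with a peak of the other replicate was found for 5 of the 40 (12.5%) and 6 of the 16 (37.5%), against 15.9% and 29.3% of the body peaks of all genes. For the promoter peaks of the 10 genes the same overlap was found for 12 of 12 in replicate 1 and 11 of 12 in replicate 2, the exception being the inner peak of Hdac1. Over all genes it was 70.5% and 86.3%.

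With a minimum q score of 60, 4 of the 40 body peaks remained in replicate 1 and 1 of the 16 in replicate 2 (10% and 6.25%), against 9.83% and 4.23% of the body peaks of all genes. The one in replicate 2 was the 3607-bp peak of Chd3 described above. In replicate 1 the highest was at the 3′ end of Hdac1, with a score of 69.9, and in replicate 2 a peak of 47.5 lay within it, centred 26103 bp from the start. At Mta1 an intronic peak scored 60.7 in replicate 1 and overlapped a peak of 47.5 in replicate 2 by 870 bp, and its middle was 21551 bp from the start. At Chd3 a 701-bp peak of replicate 2, with a score of 53.5 and a log2 ratio of 4.66, lay wholly within a peak of replicate 1. The intronic peak of Gatad2a with a score of 63.4 and a width of 2300 bp had no counterpart in replicate 2. Of the body peaks, 18 of 40 and 8 of 16 lay within 2 kb of a start of a predicted RefSeq or a GENCODE transcript of the same gene, so part of what is called body here depends on the transcript set. The same share over the body peaks of all genes was not computed, so whether these counts are usual cannot be told.

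The density of body peaks differed widely among the 10 genes. Summed over them, per 100 kb of gene there were 9.18 in replicate 1 and 3.67 in replicate 2, against 2.57 and 1.51 over all genes. Among the 9100 genes with a promoter peak in both replicates and a span from 6.99 to 118 kb, the range of the 10 genes, the figures were 4.77 and 2.73. In replicate 1, 8 of the 10 genes lay above 4.77 and 2 were at 0. In replicate 2, 5 lay above 2.73 and 5 below it, with Hdac2, Mbd2, Mbd3 and Mta2 at 0 and Mta3 at 1.70. Chd3, Chd4 and Mta1 together carried 10 of the 16 peaks of replicate 2. Chd4 had 26.0 and 8.67 per 100 kb, at the 97.4 and 85.7 percentiles of those genes. Chd3 had 19.1 and 11.5, at the 92.1 and 91.1 percentiles. Mta2 had 28.9 in replicate 1 and 0 in replicate 2. In those 9100 genes, 58.1% had a body peak in replicate 1 and 45.3% in replicate 2, beside 8 and 6 of the 10 NuRD genes.

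The base composition of the peaks differed between the promoters and the gene bodies. The observed over expected ratio of CG dinucleotides had a median of 0.57 in the promoter peaks of replicate 1 and 0.73 in those of replicate 2. In the body peaks it was 0.22 and 0.25. Over all genes the promoter peaks had 0.59 and 0.67, and the body peaks 0.23 and 0.23. The inner peak of Hdac1 in replicate 2, with 0.16, was the lowest of the promoter peaks of that replicate, and the peak at the Hdac1 start had 0.80.

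The ChIP-nexus lists placed no region at a NuRD gene. Of 110 regions on mouse chromosomes in the first library and 18 in the second, 0 lay within 5 kb of any of the 10 genes. With lists this short, the count says nothing about occupancy at the 10 promoters.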

How the data were processed

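The 2 SOX3 ChIP-seq lists were used as deposited. Per the study's methods, the authors aligned reads to mm10 with Novoalign, placing reads with several matches at random, removed duplicates with Picard and called peaks with USeq in each replicate against input. The lists have no header, and their columns were read from the caller's layout and the values. The deposited score columns hold −10 log10 of the p-value and of the adjusted p-value (the q score), the latter above 30 in every row, and the deposited log2 column holds the ratio of ChIP over input. A blacklist filter is stated in the methods, but whether it was applied to these lists is not given in the sources used here. In the ChIP-nexus lists the authors gave the fold enrichment and −log10 p and q values from MACS2 2.1.1. These lists were used only for position. The lists give no read counts per peak, so no interval covers counting error, and all precision rests on 2 replicates.

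Start sites and gene spans came from 45756 curated RefSeq transcripts on GRCm38.p6 (26182 genes), with all RefSeq and GENCODE transcripts as alternatives. A promoter peak reached within 2 kb of a start, and a body peak touched the gene but no promoter window. Peaks were taken as found in both replicates where the overlap was at least 50% of either peak. The search was checked on simulated peaks and against bedtools 2.31.1. Counts and medians were made with pandas 2.3.3 and scipy 1.17.1 in Python 3.11.15, and bases were read with pysam 0.24.0. Values are given as each replicate and as mean ± SD. No p-value was computed, as there is 1 group and no contrast. Named genes were the 10 members, the subunits of the listed related complexes, and neighbours whose start lies in a member's strongest promoter peak. The printed promoters were those with the highest and lowest mean score where the table holds them, and others as stated. Members and lists were chosen with earlier results of these data known. Alternatives covered the window, the q score minimum, the overlap, the transcript set and each replicate left out. No sequence from chromosome 18 is printed.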

Additional observations from a re-analysis of the deposited data

How the results depend on the processing

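The 10 promoter peaks in both replicates were also counted with a 1 kb or a 5 kb window, with all RefSeq or GENCODE transcripts and in each replicate alone (10 in each case). The count was 9 with a q score above 60 (without Hdac1) or with the middle of the peak inside the window (without Chd3, whose long peak is centred further in), and 7 above 100. Requiring 50% of both peaks for an overlap left 6 genes in place of 10, without Chd3, Chd4, Hdac1 and Mta1, where one peak was much the longer. The share of all genes under this stricter overlap is not given here, so the 6 has no background beside it. The mean over replicates of the median promoter q score was 200.3, and ranged from 114 to 287 with 1 replicate left out. It was 233 with all promoter peaks summed, and 180.3 without Mbd3, a choice made after seeing the data. The mean over replicates of the median log2 ratio was 3.56, and ranged from 2.99 to 4.14 with 1 replicate left out. Body peaks averaged 28 a replicate, from 16 without replicate 1 to 40 without replicate 2, and 2.5 with a q score above 60. Rank agreement between replicates, 0.66, was 0.22 by log2 ratio and 0.48 by summed scores. It was 0.82 without Hdac2, a setting added after seeing the data. No paired analysis was possible because no value here comes from a test between groups. The lists give peaks above a minimum and no read counts, so weak occupancy cannot be told from none, and 2 replicates limit every value.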

Other observations

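Past their 3′ ends, 7 of the 10 NuRD genes had a neighbouring start inside a SOX3 peak within 5 kb of the gene in both replicates. The share was 6.66% of all genes and 10.1% of genes with a promoter peak in both. This comparison was not among the planned results. The shares are over genes with or without another start that near, so closeness of genes and SOX3 occupancy cannot be told apart in them. The neighbours were named after their values were seen, and were Rnf227 beyond Chd3, Nop2 beyond Chd4, Marcksl1 beyond Hdac1, Crip2 and F930026P19Rik beyond Mta1, Tut1 beyond Mta2, Mex3d beyond Mbd3, and Ndufa13 and Tssk6 beyond Gatad2a. Marcksl1, which encodes a MARCKS-related actin-binding protein, had the highest of these scores, 753 in replicate 1 and 298 in replicate 2, against 145 and 54.2 at the promoter of Hdac1 next to it. The Rnf227 peak also scored above that of its NuRD neighbour in both replicates, with 379 and 153 against 253 and 104 at Chd3. At Mbd3 the order was the other way, with 346 and 151 at the start of Mex3d against 848 and 314 at Mbd3. Hdac2, Mbd2 and Mta3 had no such neighbour peak. These peaks entered none of the counts above.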
